A study of Mus musculus with 9 samples.

Results

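The nuclear-encoded subunits of the mitochondrial respiratory chain and ATP synthase were examined in CD11b+ spleen cells of C57BL/6 mice on Affymetrix MOE430 arrays. Members were all genes named alone by a probe set whose symbol starts with Nduf, Uqcr, Cox4, Cox5, Cox6, Cox7, Cox8 or Atp5, together with Sdha, Sdhb, Sdhc, Sdhd and Cyc1, and without Ndufa4l2 and the Ndufaf assembly factors. This gave 82 of 18193 genes, of which 34 belong to complex I, 4 to complex II, 9 to complex III, 18 to complex IV and 17 to complex V. Ndufa4 was counted in complex IV, where its protein is known to reside. The threat group, labelled HighThreat, held 6 mice exposed to social threat repeatedly, with 1 array per animal. The control group, labelled LowThreat, held 6 mice pooled by 2 into 3 samples. Both groups share the strain, the spleen source and the selection of adherent cells on magnetic beads for CD11b. Age, sex and the threat protocol are not given in the labels, and a control array shows a mean of 2 animals where a threat array shows 1.

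The respiratory chain sits in the inner mitochondrial membrane. Complex I takes electrons from NADH and complex II from succinate, ubiquinone carries them to complex III, and cytochrome c carries them on to complex IV, where oxygen is reduced. Complexes I, III and IV pump protons, and complex V, the ATP synthase, makes ATP as protons flow back. Most subunits are encoded in the nucleus, while a small set that includes parts of the proton-pumping cores is encoded in mitochondrial DNA. In myeloid cells, neutrophils are known to rely largely on glycolysis, whereas macrophages change their use of the chain with their state of activation.

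Most subunit genes were higher in threat than in control cells, by small amounts. Of the 82 members, 78 passed the filter on dim genes, and 50 of these 78 rose and 1 fell in limma with Benjamini-Hochberg adjustment over all 13078 tested genes at 0.05, a share of 65.4%. Among all tested genes 45.8% passed the same test, with 23.8% higher and 22% lower, so that the members' 64.1% higher and 1.28% lower stood beside a broad background of change in both directions. The members' median difference, threat minus control, was 0.22 on the log2 scale, or 1.16-fold, beside 0.029 over all tested genes. Differences were positive in 68 members and negative in 10. In 49 members the ranges of threat and control values were separate, 48 of them with threat above control and 1 below. Among all tested genes 41.8% were separated in this way, 21.5% with threat above and 20.3% with threat below. Large changes were few: 3 members were at least 1.5-fold higher and none was at least 1.5-fold lower, beside 5.31% and 5.91% of all tested genes. By complex, 27 of 33 tested genes of complex I rose, 2 of 4 of complex II, 3 of 9 of complex III, 9 of 15 of complex IV and 9 of 17 of complex V, and the single fall was Cox7c of complex IV. The median differences of complexes I to V were 0.30, 0.19, 0.13, 0.22 and 0.14 on the log2 scale.

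**Figure D1:**
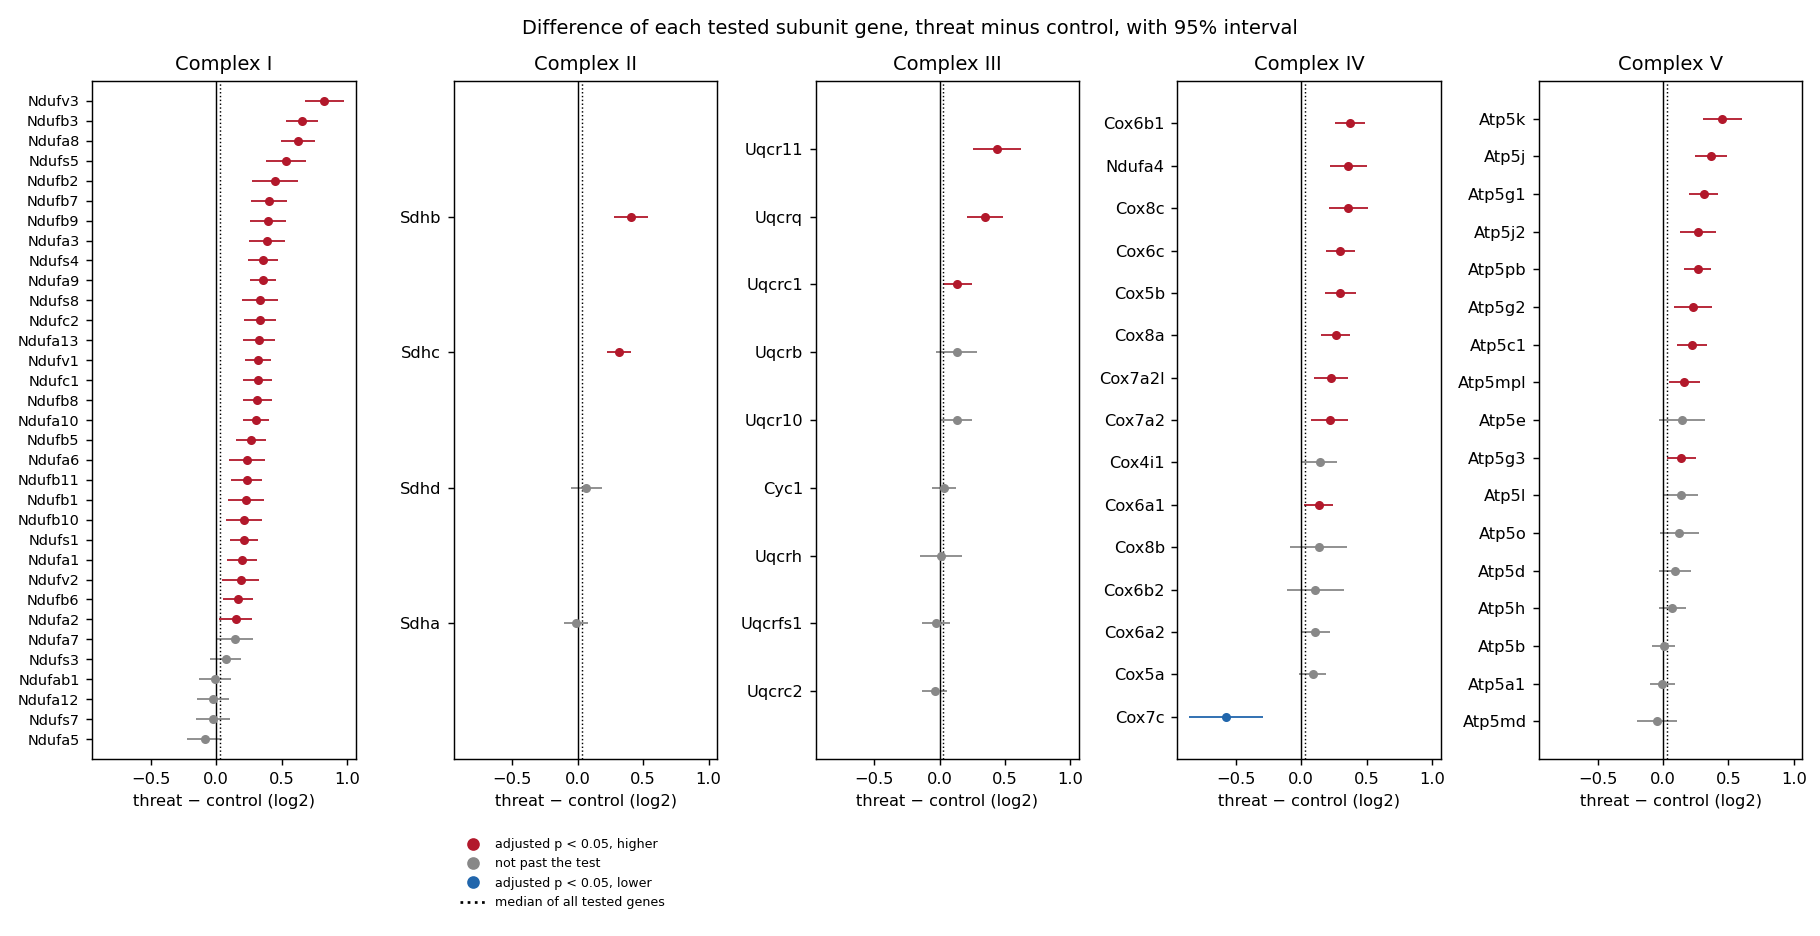
Difference between threat and control (log2, horizontal axis) for each of the 78 tested subunit genes, by complex, with its 95% confidence interval from limma. Red points rose, the blue point fell and grey points did not pass the test. The dotted line is the median of all tested genes, 0.029, and the 50 red points lie to its right.

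The shift was visible on every array. The mean log2 value over the 78 tested members was 8.34, 8.34, 8.34, 8.25, 8.27 and 8.35 in threat animals 1 to 6, against 8.15, 8.14 and 8.01 in control pools 1-2, 3-4 and 5-6. All 6 threat means lay above all 3 control means, and the same held within complexes I, II, IV and V. In complex III the threat animals ran between 8.44 and 8.54 and the control pools between 8.26 and 8.45, so that pool 1-2 overlapped the lowest threat animals. Over all tested genes the array means lay between 5.39 and 5.41 in threat animals and between 5.37 and 5.41 in control pools. Control pool 5-6 gave the lowest control value in 72 of the 78 members (92.3%), beside 46.2% of all tested genes, and threat animal 4 gave the lowest threat value in 41 members (52.6%), beside 18.1% of all genes. Without control pool 5-6, 40 of the 50 rises passed the test and the members' median difference was 0.16. The share of all tested genes that passed was then 40.6%, with 20% higher and 20.6% lower. With all arrays these shares were 45.8%, 23.8% and 22%. The complex III median then was 0.0497, beside 0.13 with all arrays, and the complex V median 0.094, beside 0.14.

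**Figure D2:**
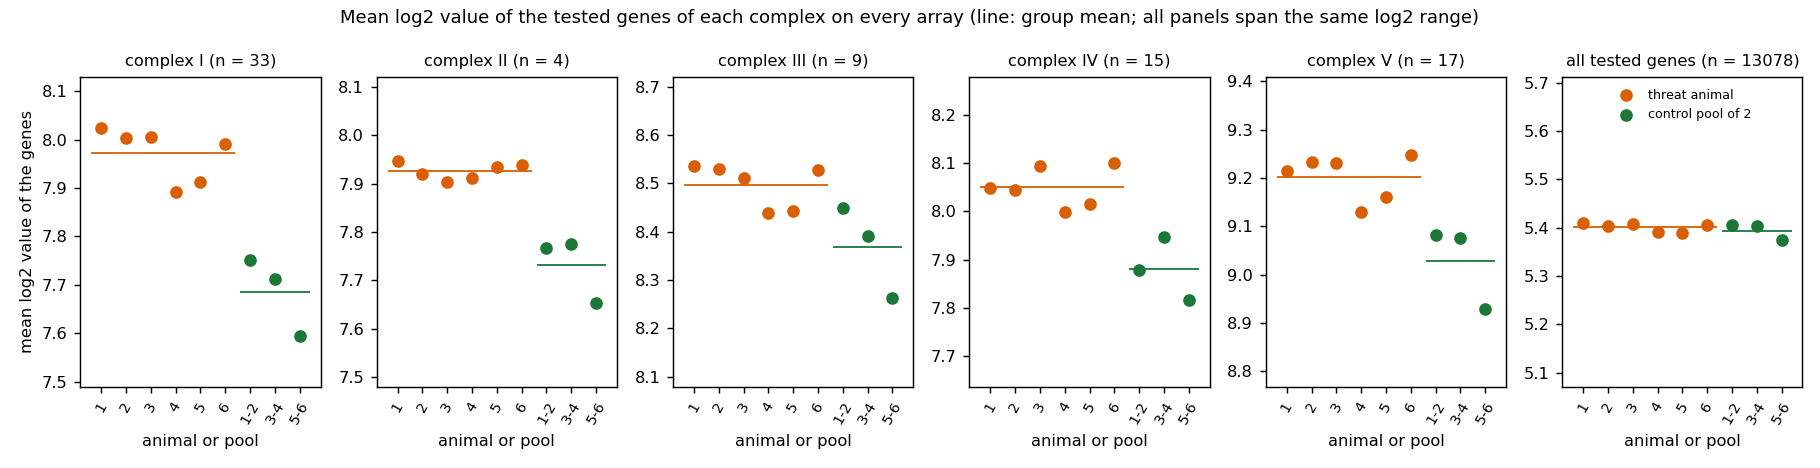
Mean log2 expression (vertical axis) over the tested genes of each complex and over all 13078 tested genes, on each array (horizontal axis). Orange points are threat animals, green points are control pools of 2, and the lines are group means. Threat points lie above control points in every complex except complex III, where pool 1-2 reaches the lower threat animals.

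Marker genes of several cell types and the actin measure of RNA quality differed between the groups, while the same measure of Gapdh did not pass a test. Of 14 tested granulocyte and precursor markers 13 rose and none fell, and their mean log2 value lay between 9.96 and 10.40 in threat animals and between 8.57 and 8.71 in control pools. The differences of the list ran from 0.31 to 3.48 on the log2 scale, with a median of 1.38. The calprotectin genes S100a9 and S100a8, the brightest of the list, were higher by 0.47 and 0.39. All 9 proliferation markers rose, with array means between 5.42 and 6.12 in threat animals and between 4.46 and 4.63 in control pools, and Ube2c and Mki67 were higher by 1.73 and 1.13. Markers of lymphocytes and dendritic cells mostly fell. Of 9 B cell markers 8 fell, with array means of 4.82 to 5.23 in threat animals and 6.79 to 7.02 in control pools, and with Cd79a lower by 2.31 and Cd79b by 2.41 on the log2 scale. Of 9 natural killer cell markers 8 fell (array means 3.97 to 4.21 in threat animals, 5.52 to 5.74 in control pools; Klrd1 and Gzma fell by 1.52 and 3.11), and of 9 dendritic cell markers 8 fell (4.99 to 5.04 in threat animals, 5.91 to 6.00 in control pools; Ccr7 and Itgax fell by 1.89 and 1.01). Of 6 T cell markers 4 fell, with array means of 3.91 to 4.01 in threat animals and 4.37 to 4.42 in control pools. Cd4 fell by 0.41, while Cd3e differed by -0.041. Monocyte and macrophage markers were mixed, with 5 of 11 higher and 3 lower and array means of 8.62 to 8.71 in threat animals and 8.61 to 8.71 in control pools. Cd14 rose by 0.58 and Lyz2 by 0.12. Erythroid precursor markers were mostly dim, with 4 of 8 below the filter, 1 higher and 1 lower. Their array means were 4.26 to 4.36 in threat animals and 4.52 to 4.66 in control pools, and Tfrc fell by 1.23 while Epor differed by 0.074. Itgam, which encodes CD11b itself, averaged 8.50 ± 0.07 in threat animals (SD, n = 6) and 7.93 ± 0.026 in control pools (SD, n = 3), a rise of 0.57. The beta-actin difference between its 3' and 5' probe sets, which grows as RNA degrades, was 0.356 ± 0.034 in threat animals and 0.472 ± 0.063 in control pools (SD, exact permutation p = 0.0238, two-sided), whereas the same measure of Gapdh showed a difference of -0.036 (exact permutation p = 0.512). The part of the marker genes and of RNA quality in the subunit differences was not tested. In such bulk samples, a change in the share of a cell type and a change in RNA per cell cannot be told apart.

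Complex I showed the highest share of rises. Among its 33 tested genes 27 rose and none fell, and the 3 largest rises of all members were here. Ndufv3, a small accessory subunit beside the NADH-binding flavoprotein, had a lowest, median and highest log2 value of 8.49, 8.65 and 8.72 in threat animals, against 7.86, 7.86 and 7.67 in control pools 1-2, 3-4 and 5-6. The lowest threat value lay well above the highest control value. Ndufv3 was thus higher by 0.83 (SE 0.068, adjusted p = 7.1e-07), a 1.77-fold difference. Ndufb3, an accessory subunit of the membrane arm, had 7.56, 7.64 and 7.72 in threat animals, against 7.02, 7.04 and 6.89 in control pools. Its groups were equally separate, and the difference was 0.66 (SE 0.056, adjusted p = 9.9e-07). Ndufa8, which lies on the side of the intermembrane space, had 7.56, 7.61 and 7.75 in threat animals, against 7.13, 6.97 and 6.96 in control pools, and was higher by 0.62 (SE 0.06, adjusted p = 2.8e-06). Pool 1-2 was the highest control array for this gene, still below all threat animals.

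The other complex I genes moved less. Ndufs5, on the same face of the membrane arm as Ndufa8, had 6.57, 6.71 and 6.81 in threat animals, against 6.27, 6.22 and 6.00 in control pools, and Ndufb2 had 7.05, 7.24 and 7.39, against 6.95, 6.78 and 6.62. Neither gene's groups overlapped, although the lowest threat value of Ndufb2 came close to pool 1-2. Ndufs5 rose by 0.54 (SE 0.07, adjusted p = 4.2e-05) and Ndufb2 by 0.45 (SE 0.08, adjusted p = 0.00049). The 4 genes Ndufv3, Ndufb3, Ndufa8 and Ndufs5, all higher, were also the only members that passed limma's treat test for a change beyond 1.2-fold. Under this added setting 16.5% of all tested genes passed, 7.99% higher and 8.54% lower.

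Core and accessory subunits of complex I were both represented among the rises. The core subunits, which carry the flavin and the iron-sulfur clusters, rose in 4 of 6 tested genes with a median difference of 0.20, and the accessory subunits, which surround the core and take part in its assembly and stability, rose in 23 of 27 with a median of 0.31. Roles here and below were assigned after the values had been seen. Ndufs8 and Ndufv1, an iron-sulfur subunit near the quinone site and the NADH- and flavin-binding subunit, rose by 0.34 and 0.32 (adjusted p = 0.00072 and 9.5e-05). Ndufs1 and Ndufv2, both iron-sulfur subunits of the NADH-oxidising module, rose by 0.21 and 0.19. Ndufs3 and Ndufs7 did not pass the test, with differences of 0.073 (95% interval -0.043 to 0.19) and -0.024 (-0.15 to 0.11). Among accessory genes the rises ran down to 0.15 in Ndufa2, and 4 did not pass. Ndufa7, the brightest of these, had 8.72, 8.86 and 8.89 in threat animals, against 8.79, 8.75 and 8.52 in control pools, a difference of 0.15 (adjusted p = 0.0821). Its groups overlapped through threat animal 4, and it passed the test without pool 1-2, at 0.20 (adjusted p = 0.0454), and with median centring, at 0.17 (adjusted p = 0.0326). Ndufab1, the mitochondrial acyl carrier protein, differed by -0.0095, Ndufa12 by -0.022 and Ndufa5 by -0.087. Calls of 4 small rises were lost when a single array was left out. Without control pool 5-6 the adjusted p was 0.0846 for Ndufb10, 0.171 for Ndufv2, 0.088 for Ndufb6 and 0.179 for Ndufa2. Ndufv2 was also lost without threat animal 1 and Ndufb6 without pool 3-4, and Ndufa2 was lost in 8 of the 9 such fits. With all arrays and each probe set tested on its own, further probe sets of some genes rose. Those of Ndufv2 rose by 0.30 and 0.25 (adjusted p = 0.0053 and 0.0194) and that of Ndufb6 by 0.24 (adjusted p = 0.0059). For Ndufa7, dimmer probe sets at 0.24 and 0.20 passed (adjusted p = 0.0284 and 0.0399), and those at 0.086 and 0.10 did not.

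Some complex I genes were dim, shared a probe set with a related gene or fell outside the rule for members. Ndufb4 was the member of complex I below the filter, at 1.77 in threat animals and 1.93 in control pools (means of log2 values), through the probe set that names it alone. The probe sets that name it together with Ndufb4b and Ndufb4c were brighter and differed by 0.20 and 0.16 (adjusted p = 0.063 and 0.176). Ndufs6 was measured by a probe set shared with Ndufs6b, which rose by 0.30 (adjusted p = 0.0025), and Ndufa11 by 2 probe sets shared with Ndufa11b, which differed by 0.11 and 0.041 and did not pass. ND5, a proton-pumping core subunit of complex I encoded in mitochondrial DNA and no member by the rule, was added after its value was seen. It averaged 10.82 ± 0.13 in threat animals and 10.93 ± 0.16 in control pools (SD, n = 6 and 3), a difference of -0.10 (adjusted p = 0.354), and its groups overlapped.

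Promoter sequences were set beside these rises because nuclear genes of the chain are known to be bound at their starts by NRF1, by the ETS factor GABP and by YY1. Windows of 250 bases before to 50 bases after the start, from RefSeq on GRCm38.p6, were found for 67 of the 82 members and were searched on both strands for the core letters of NRF1 (GCGCA, any base, then GCGC), of GABP (CCGGAAG) and of YY1 (AAGATGGC), and a GABP and a YY1 match can share the letters AAG. The choice of motifs and of the promoters shown was made after the values had been seen. At least 1 of the 3 motifs was present in 53.7% of members and in 16.4% of 27025 genes with such a window. These 27025 genes were not limited to genes tested on the arrays and were not matched to the members in base composition. The NRF1 core was present in 22.4% of members, beside 5.19% of all genes, the GABP core in 25.4%, beside 9.93%, and the YY1 core in 13.4%, beside 3.19%. Between members that rose and members that did not pass the test, the NRF1 core was in 21.4% and 23.8%, the GABP core in 23.8% and 33.3%, and the YY1 core in 8 of 42 and 1 of 21. These windows of the largest rise and of 3 contrasting cases have the motif in capitals. Ndufv3 holds none of the 3 motifs, Ndufa8 holds the NRF1 core 30 bases before the start, Ndufa3 holds the YY1 core 23 bases after it, and Sdha of complex II, which did not pass the test, holds the NRF1 core 3 times, at 98, 55 and 10 bases before the start.
Ndufv3: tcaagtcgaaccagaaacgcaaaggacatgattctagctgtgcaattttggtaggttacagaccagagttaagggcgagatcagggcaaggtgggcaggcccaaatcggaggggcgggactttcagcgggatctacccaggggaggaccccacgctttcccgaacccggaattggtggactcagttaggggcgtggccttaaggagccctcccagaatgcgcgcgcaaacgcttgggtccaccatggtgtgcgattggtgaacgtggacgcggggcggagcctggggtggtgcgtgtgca
Ndufa8: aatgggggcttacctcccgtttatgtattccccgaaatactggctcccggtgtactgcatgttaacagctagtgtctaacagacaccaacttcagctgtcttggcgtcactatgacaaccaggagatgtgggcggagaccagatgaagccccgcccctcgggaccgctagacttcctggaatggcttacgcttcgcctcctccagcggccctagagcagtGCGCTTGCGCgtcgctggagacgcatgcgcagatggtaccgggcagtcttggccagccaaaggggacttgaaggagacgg
Ndufa3: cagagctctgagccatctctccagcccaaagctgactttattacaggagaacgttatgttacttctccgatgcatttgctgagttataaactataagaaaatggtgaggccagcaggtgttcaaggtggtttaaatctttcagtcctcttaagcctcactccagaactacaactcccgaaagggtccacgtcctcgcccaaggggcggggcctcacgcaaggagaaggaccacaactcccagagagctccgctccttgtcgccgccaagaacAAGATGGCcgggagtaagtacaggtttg
Sdha: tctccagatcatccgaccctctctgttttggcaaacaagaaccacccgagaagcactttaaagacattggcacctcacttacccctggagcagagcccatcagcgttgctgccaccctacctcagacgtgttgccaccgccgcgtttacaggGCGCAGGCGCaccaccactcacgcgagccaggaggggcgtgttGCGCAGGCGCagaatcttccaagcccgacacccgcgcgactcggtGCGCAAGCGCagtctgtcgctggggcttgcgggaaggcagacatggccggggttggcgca
Ndufv3 lies at chr17:31519865-31520164 on the plus strand, Ndufa8 at chr2:36049289-36049588 on the minus strand, Ndufa3 at chr7:3617123-3617422 on the plus strand and Sdha at chr13:74350191-74350490 on the minus strand. Ndufa3, a small membrane-arm accessory subunit, rose by 0.39 (SE 0.063, adjusted p = 0.00025), with 9.71, 9.83 and 9.86 in threat animals, against 9.499, 9.47 and 9.26 in control pools, and without overlap. A motif match describes the letters of a window and no binding was measured.

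Complex II was split between its subunits. Sdhb, the iron-sulfur subunit, had 8.56, 8.62 and 8.70 in threat animals, against 8.28, 8.32 and 8.07 in control pools. Sdhc, a membrane anchor, had 7.29, 7.37 and 7.39, against 7.04, 7.07 and 7.02. Both genes had all threat values above all control values and rose, Sdhb by 0.41 (SE 0.059, adjusted p = 0.0001) and Sdhc by 0.32 (SE 0.043, adjusted p = 6.5e-05). Sdhd, the other anchor, had 7.88, 7.93 and 8.03 in threat animals, against 7.93, 7.94 and 7.75 in control pools, and Sdha, the flavoprotein that oxidises succinate and whose promoter is printed above, had 7.73, 7.78 and 7.80, against 7.82, 7.78 and 7.77. The groups of both genes overlapped. Their differences were 0.065 (95% interval -0.053 to 0.18) and -0.012 (-0.10 to 0.079), and neither passed the test. The Sdha value depended on the probe set, as a second, dimmer one rose by 0.33 (adjusted p = 0.0005) and another one near the filter fell by 0.38 (adjusted p = 0.0257). No other member had probe sets that passed the test in opposite directions.

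**Figure D3:**
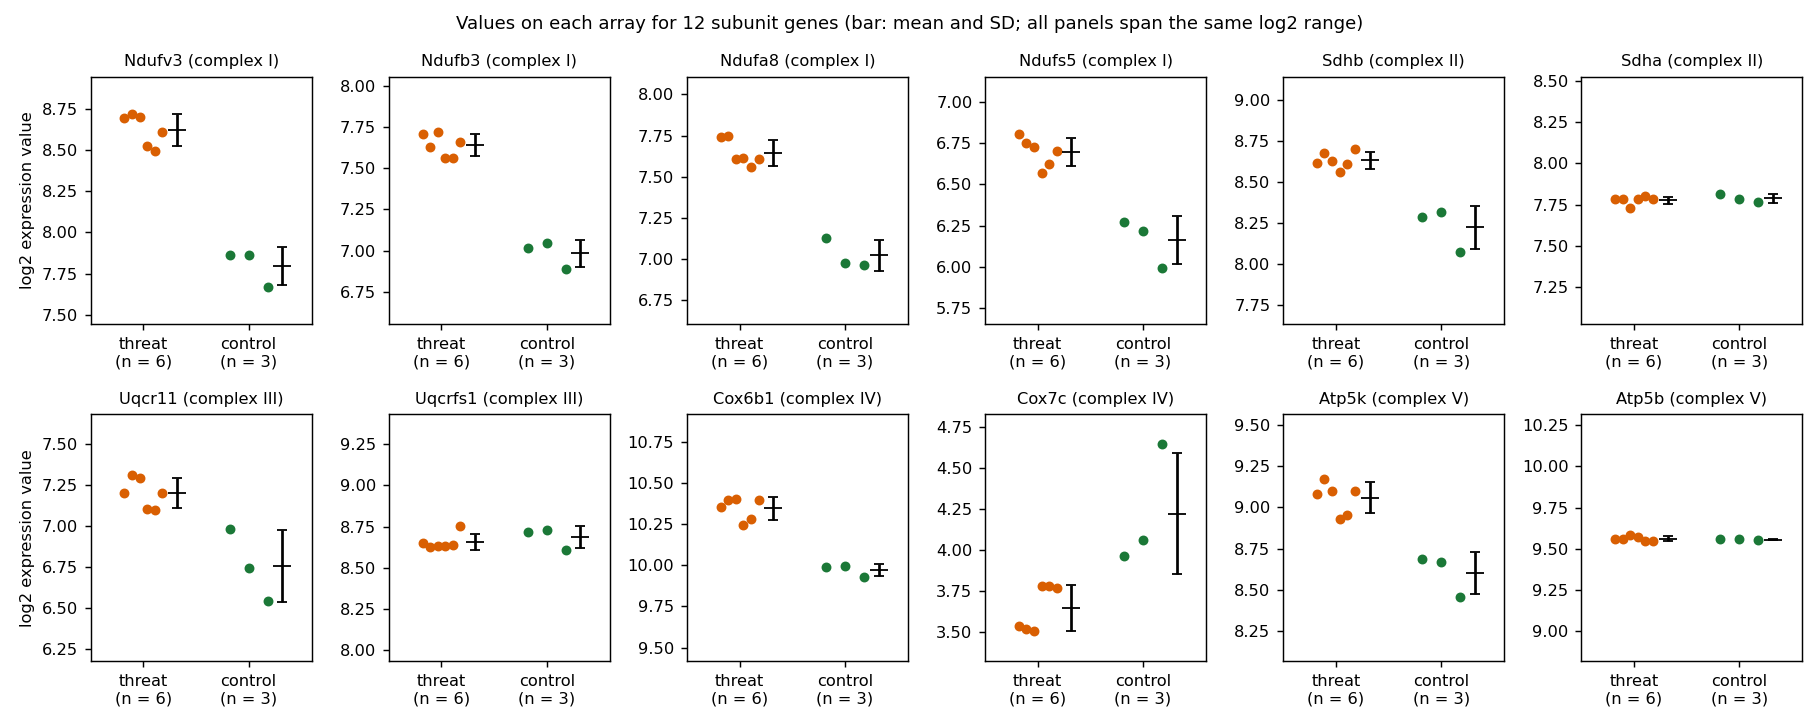
Log2 expression (vertical axis) of 12 subunit genes on each array, threat animals in orange and control pools in green, with group mean and SD as bars. In Ndufv3, Ndufb3 and Ndufa8 all threat points lie at 7.56 log2 or higher and above every control point, whereas in Sdha, Uqcrfs1 and Atp5b the groups overlap.

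Complex III had 3 rises among 9 genes (33.3%), beside 23.8% of all tested genes. Neither of its 2 tested subunits that carry a redox centre rose, a number too small to set against that share. Uqcr11, a small subunit, had 7.10, 7.202 and 7.31 in threat animals, against 6.98, 6.75 and 6.55 in control pools. The control pools were spread more widely than the threat animals, without overlap. Uqcr11 rose by 0.44 (SE 0.085, adjusted p = 0.00089). Uqcrq, a small subunit known as a ubiquinone-binding protein, had 7.77, 7.94 and 8.01 in threat animals, against 7.64, 7.53 and 7.49, and rose by 0.35 (SE 0.064, adjusted p = 0.00061). Of its dim probe sets that carry no cross-hybridisation suffix, 1 differed by -0.094 and did not pass, and 1 of similar signal rose by 0.43 (adjusted p = 0.0221). Uqcrc1, a core protein of the matrix side, rose by 0.13 with an adjusted p of 0.0478, a call that was lost in 7 of the 9 fits that left out an array. Cyc1, which holds the haem of cytochrome c1, had 7.76, 7.78 and 7.81 in threat animals, against 7.78, 7.75 and 7.71 in control pools, and Uqcrfs1, the Rieske iron-sulfur protein, had 8.63, 8.64 and 8.75, against 8.72, 8.73 and 8.61. In both genes the groups overlapped, and the intervals of the difference were narrow. Cyc1 differed by 0.035 (95% interval -0.055 to 0.13), Uqcrfs1 by -0.03 (-0.14 to 0.078) and Uqcrc2, the other core protein, by -0.036 (-0.13 to 0.06). These 3 genes were named after their values had been seen. Uqcrb, the brightest gene of the complex that did not pass, had 10.60, 10.75 and 10.84 in threat animals, against 10.71, 10.66 and 10.44 in control pools, a difference of 0.13 (adjusted p = 0.159). Uqcr10 and Uqcrh, the remaining small subunits, differed by 0.13 and 0.012, and Uqcr10 passed the test without pool 1-2 at 0.17 (adjusted p = 0.0424) and in 3 of the settings that kept all arrays.

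In complex IV 9 of 15 tested genes rose, 8 of them general subunits. Of 11 subunits made in most tissues 8 rose and 1 fell. Of 4 tested genes that encode isoforms of particular tissues 1 rose. This count is small and near the 23.8% of all tested genes that rose. Cox6b1, which lies between the monomers on the side of cytochrome c, had 10.24, 10.38 and 10.40 in threat animals, against 9.99, 9.998 and 9.93 in control pools. The 3 pools were close together and clearly below. Cox6b1 rose by 0.37 (SE 0.052, adjusted p = 6.8e-05). Ndufa4 had 8.37, 8.47 and 8.55 in threat animals, against 8.15, 8.20 and 7.95, and rose by 0.36 (SE 0.063, adjusted p = 0.00046). Cox6c and the zinc-binding subunit Cox5b, on the matrix side, both rose by 0.30 (adjusted p = 0.00038 and 0.00067). Cox8a rose by 0.26, Cox7a2l, named for its likeness to Cox7a2, by 0.23, and Cox7a2 by 0.22. The Cox7a2 call was lost without pool 5-6 (adjusted p = 0.0931). Cox6a1, the brightest member of all, averaged 11.10 in threat animals and 10.97 in control pools. It rose by 0.13 (adjusted p = 0.0463), a call that was lost in 7 of the 9 fits that left out an array. With each probe set tested alone, this one did not pass (adjusted p = 0.058) and a dimmer one rose by 0.27 (adjusted p = 0.0037). Cox4i1, the common form of the subunit that binds regulatory nucleotides, had 10.22, 10.33 and 10.36 in threat animals, against 10.26, 10.24 and 10.01 in control pools. Its groups overlapped through threat animal 4, and it did not pass (0.14, adjusted p = 0.0791). It passed without pool 1-2 (adjusted p = 0.0492), with median centring (0.0303) and with an intensity trend in limma (0.039). Cox5a, a general subunit of the matrix side, differed by 0.086 (adjusted p = 0.161).

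The tissue isoforms were dimmer than the general subunits other than Cox7c. Cox4i2, Cox7a1 and Cox7b2 were below the filter, with means of 2.64, 2.09 and 1.48 in threat animals and 2.57, 2.06 and 1.51 in control pools. The muscle forms Cox6a2 and Cox8b differed by 0.11 (adjusted p = 0.112) and 0.13 (adjusted p = 0.302), and Cox6b2, known from testis, by 0.11 (adjusted p = 0.417). Cox6a2 passed the test without pool 3-4, at 0.16 (adjusted p = 0.0212), with quantile normalization, at 0.15, and with median centring, at 0.13. Cox8c, a testis form, was the exception, with 5.55, 5.58 and 5.66 in threat animals, against 5.13, 5.43 and 5.13 in control pools, and rose by 0.36 (adjusted p = 0.00073). That probe set is annotated as open to cross-hybridisation, and the second probe set of Cox8c differed by 0.061 and did not pass. Cox7c, a general subunit, was the one member that fell. It had 3.50, 3.65 and 3.78 in threat animals, against 3.96, 4.06 and 4.64 in control pools, so that pool 5-6 stood above the other arrays and the groups did not overlap. The fall was 0.57 (SE 0.13, adjusted p = 0.0029) at signals near the filter value of 2.66. Cox7c averaged 3.84 over all arrays, while the other general subunits of the complex ran from 8.34 (Ndufa4) to 11.06 (Cox6a1). Without pool 5-6 the difference was -0.36, which also passed the test. The fall was not measured where the filter was stricter or where probe sets without cross-hybridisation suffix were preferred, since no Cox7c probe set then entered the test.

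In complex V, the ATP synthase, the genes of the alpha and beta subunits of the F1 head did not pass the test, while 9 of the 17 tested genes rose. In the F1 head and central stalk 1 of 5 genes rose and in the peripheral stalk 2 of 4. In the c-ring 3 of 3 rose and among the accessory subunits in the membrane 3 of 5. The median differences were, in this order, 0.093, 0.19, 0.23 and 0.16. Each of these groups is small, and the 1 of 5 was near the 23.8% of all tested genes that rose. The catalytic beta subunit Atp5b had 9.54, 9.56 and 9.59 in threat animals, against 9.56, 9.56 and 9.55 in control pools, and the alpha subunit Atp5a1 had 9.61, 9.66 and 9.67, against 9.70, 9.66 and 9.61. Both genes held nearly the same value on all arrays. Their differences were 0.0053 (95% interval -0.083 to 0.093) and -0.0042 (-0.097 to 0.089), or at most 1.07-fold and 1.06-fold higher by the upper bounds. Of the stalk within the head, the gamma subunit Atp5c1 rose by 0.22 (adjusted p = 0.0043), while Atp5d and Atp5e differed by 0.093 and 0.14 without passing. The rise of Atp5c1 rested on its bright probe set. Its other, dim probe set differed by -0.26 and did not pass, and the mean of both differed by -0.018, so the direction turned with the choice of probe set. These 5 genes were named after their values had been seen.

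The largest differences of the complex were in the membrane part and the peripheral stalk. Atp5k, the e subunit at the contact of dimers, had 8.93, 9.09 and 9.17 in threat animals, against 8.69, 8.67 and 8.46 in control pools. Atp5j, coupling factor 6 of the peripheral stalk, had 9.41, 9.49 and 9.54, against 9.16, 9.21 and 8.99. Neither gene's groups overlapped, with pool 5-6 the lowest in each. Atp5k rose by 0.45 (SE 0.069, adjusted p = 0.00015) and Atp5j by 0.37 (SE 0.056, adjusted p = 0.00014). Atp5pb, the b subunit of the peripheral stalk, rose by 0.26 (SE 0.046, adjusted p = 0.00046), and Atp5j2, the f subunit, by 0.27 (SE 0.062, adjusted p = 0.0032). Atp5h, the d subunit of that stalk and the brightest gene of the complex that did not pass, had 10.41, 10.44 and 10.52 in threat animals, against 10.42, 10.42 and 10.31, a difference of 0.071 (adjusted p = 0.258). The c-ring genes Atp5g1, Atp5g2 and Atp5g3 encode the same mature protein, the ring that turns as protons pass. Atp5g1 had 7.198, 7.28 and 7.35 in threat animals, against 6.96, 7.03 and 6.92 in control pools. Atp5g2 had 8.45, 8.56 and 8.59, against 8.35, 8.45 and 8.13, and Atp5g3 had 10.26, 10.33 and 10.37, against 10.21, 10.26 and 10.10. The groups did not overlap in any of the 3, but pool 3-4 came close to the lowest threat animal in Atp5g2 and Atp5g3. They rose by 0.31 (adjusted p = 0.00025), 0.23 (adjusted p = 0.0125) and 0.14 (adjusted p = 0.0413). Without pool 5-6 the adjusted p of Atp5g2 was 0.0673, with its probe sets averaged it differed by 0.069 and did not pass, and Atp5g3 was lost in 6 of the 9 fits that left out an array. Atp5mpl, a small membrane subunit, rose by 0.16 (adjusted p = 0.0295) and was lost in 5 of those fits.

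**Figure D4:**
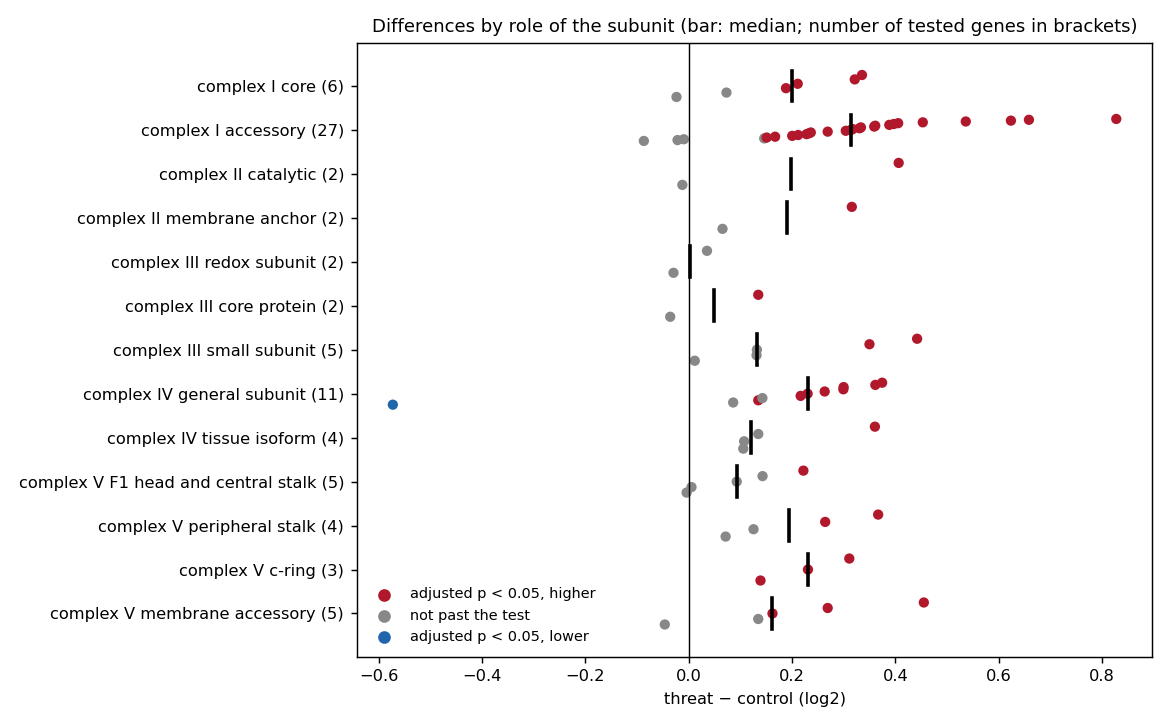
Difference between threat and control (log2, horizontal axis) for each tested subunit gene, grouped by the role of its protein, with the number of tested genes in brackets and a bar at the median. The 23 red points of the accessory subunits of complex I have the widest spread upward, and the redox subunits of complex III lie near 0, as do Atp5a1 and Atp5b in the F1 head.

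Genes that serve the chain without being its subunits gave both rises and falls. So did all tested genes, of which 23.8% rose and 22% fell. Of 40 tested assembly factors of the complexes 8 rose and 6 fell (20% and 15%), with a median difference of 0.04. Ndufaf7, a methyltransferase that acts on complex I, rose by 1.09 (adjusted p = 1.2e-07), and Ndufaf4, another complex I assembly factor, fell by 0.89 (adjusted p = 8.5e-07). Of 8 tested genes for cytochrome c and alternative donors to ubiquinone 2 rose and 4 fell (25% and 50%). Sqor, the sulfide oxidoreductase that passes electrons to ubiquinone, had a mean of 8.81 in threat animals and 7.53 in control pools and rose by 1.28, while Gpd2, the mitochondrial glycerol phosphate dehydrogenase, fell by 0.53, and cytochrome c itself, Cycs, fell by 0.20. Carriers and channels for ATP and protons gave 2 rises and 2 falls among 9, or 22.2% each. Vdac2, an outer membrane channel, was higher by 0.20, and Ppif, the cyclophilin of the permeability pore, was lower by 0.25.

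Among 16 tested regulators of mitochondrial biogenesis 3 rose and 7 fell (18.8% and 43.8%), with a median of -0.19. Over all tested genes these shares were 23.8% and 22%. Esrra, the nuclear receptor that drives oxidative genes, rose by 0.85 (adjusted p = 2.7e-06), and Myc fell by 1.01 (adjusted p = 2.7e-08). Tfam, the packaging and transcription factor of mitochondrial DNA, fell by 0.71 (adjusted p = 3.2e-06). Of the factors whose motifs were searched above, Gabpa fell by 0.20 (adjusted p = 0.007), and Nrf1 and Yy1 did not pass (0.069 and -0.10). Ppargc1a was below the filter, at 1.91 in threat animals and 1.87 in control pools. Tfam, Cycs and these 4 genes were named after their values had been seen. Protein import gave 5 rises and 6 falls among 20 (25% and 30%). These were led by Timm17b of the inner membrane translocase (higher by 0.26) and Hspa9, the matrix chaperone of import (lower by 0.67). Genes of cristae and mitochondrial shape gave 4 rises and 1 fall among 16 (25% and 6.25%). Oma1, a stress-activated protease, was higher by 0.60, and Immt, the scaffold of cristae junctions, was lower by 0.16. The lists describe these counts only, and no test between them and the subunits was made.

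**Figure D5:**
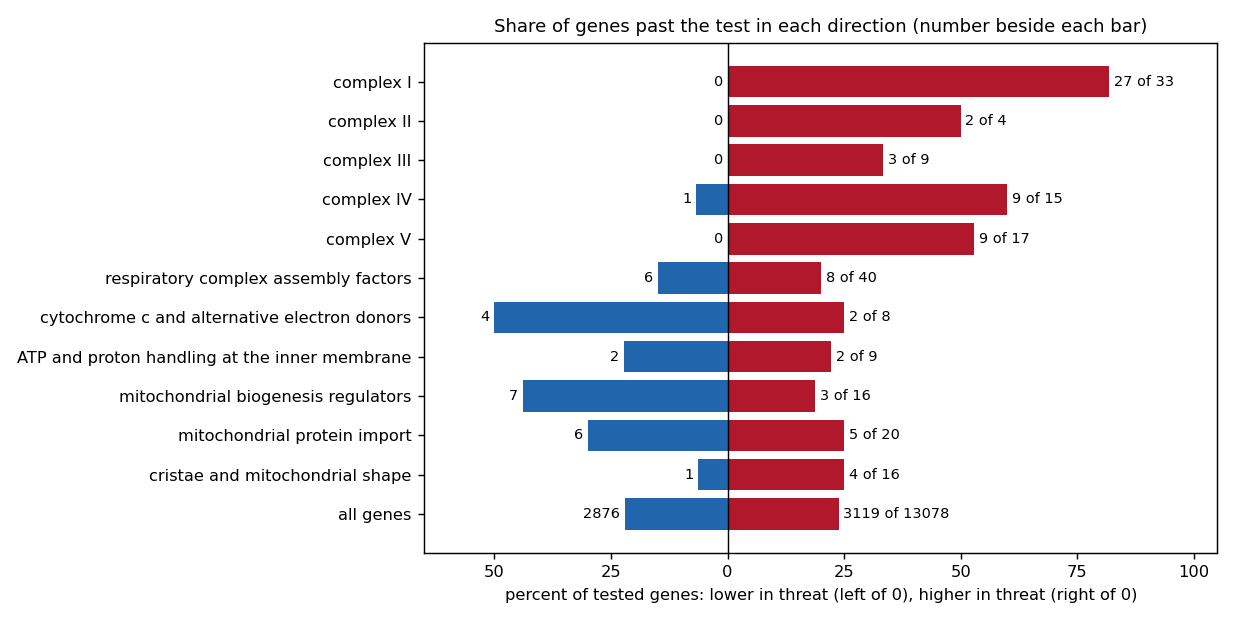
Percent of tested genes that passed the test lower (left, blue) or higher (right, red) in threat animals, for each complex, for 6 lists of other mitochondrial genes and for all tested genes. The 5 complexes have 0 or 1 gene on the left, whereas every other list has genes on both sides, as all tested genes do.

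Probe sets of a gene did not always give the same call. The members had 169 probe sets that name them alone, of which 151 were tested, and 39.8% of all tested probe sets passed when each was tested on its own. Of 45 members with more than 1 tested probe set, 28 had the same call in each and 17 had called and uncalled probe sets, and 1 of the 17, Sdha, had calls in both directions. Of 10 probe sets that name a member with another gene, 9 passed the filter, and 3 of them rose, 1 fell and 5 did not pass. The 1 that fell is shared by Ndufab1 and its pseudogene Ndufab1-ps (-0.18, adjusted p = 0.0379).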

How the data were processed

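The 9 arrays were grouped by the stress label. The deposited log2 values, 1 per probe set and array, come from RMA, per the submitters' processing notes, with no version or settings given in the sources used here. The log base was read from the values, which span 0.607 to 13.567. RMA makes array distributions alike, so a change in total RNA per cell is not visible, and it gives no detection call.

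Of 45037 probe sets other than controls, 34945 name 1 gene in the platform annotation, and symbols were updated through Entrez numbers to RefSeq GRCm38.p6 (34741 matched). Per gene the probe set with the highest mean was used, and genes at or above the 40th percentile of probe set means (log2 2.66) were tested. Threat minus control was fitted with limma 3.58.1 in R 4.3.3 (lmFit, eBayes), two-sided, with Benjamini-Hochberg adjustment over 13078 genes at 0.05. Control and several-gene probe sets were left out of this fit. Errors are limma's moderated SE or 95% intervals, and single values over arrays were compared with an exact permutation test over 84 divisions, whose smallest p is 0.0119. The number of arrays limits the precision. The fitting steps were tested on simulated data, in which all large changes were recovered but only part of those as small as many member differences, and the share required at the middle size was lowered after a first run fell short of it. A gene that did not pass may therefore have changed by a small amount.

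Named were all genes of complex II, the 5 largest rises and falls and the brightest uncalled gene of each other complex, the tissue isoforms, the c-ring genes, the largest rise and fall of each pathway list and the 2 brightest markers of each cell type. Further genes were named after their values were seen, as the text says, and so were the other complex I genes, Uqcr10, Uqcrh, Cox5a and Atp5mpl. Members, lists and tests were chosen with earlier results of these data known. Alternatives varied the filter, the probe set per gene, the scaling, limma's prior, the array weights, the averaging of threat animals, the replicate block, the complex of Ndufa4 and the arrays included. Correlations of deviations between threat pairs and control pools of the same numbers were 0.149, -0.152 and -0.029, so the numbers were not taken to pair the arrays.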

Additional observations from a re-analysis of the deposited data

Results flagged for a closer look

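In 4 of the 82 members 1 threat animal stood apart from the other 5, by Dixon's ratio of its gap to the group's range above the 95% critical value for 6 samples, a criterion that chance alone meets in about 1 of 20 groups. Ndufs4 was lowest in threat animal 5 at 6.88, where the others lay between 7.005 and 7.03 (ratio 0.833). Sdha was lowest in threat animal 3 at 7.73, against 7.78 to 7.80 (ratio 0.735). Uqcrfs1 was highest in threat animal 6 at 8.75, against 8.63 to 8.65 (ratio 0.832). Atp5a1 was lowest in threat animal 1 at 9.61, against 9.65 to 9.67 (ratio 0.678). The 4 genes had a different animal apart in each case, and control groups of 3 were not examined in this way.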

How the results depend on the processing

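Of the 51 calls, 51 were kept with median centring (5 gained), with an intensity trend and with control pools at weight 2, 50 with the stricter filter, 49 with quantile normalization, 48 with a gene's probe sets averaged, 47 without a filter or with probe sets free of a cross-hybridisation suffix preferred, and 45 with threat animals averaged in pairs. Leaving out each array in turn gave 40 to 49 rises (complex I 23 to 27, complex II 2 to 2, complex III 2 to 3, complex IV 7 to 9, complex V 6 to 9) and 1 fall, with medians of 0.27 to 0.31, 0.16 to 0.21, 0.0497 to 0.15, 0.15 to 0.25 and 0.094 to 0.20 for complexes I to V, the lowest in each without control pool 5-6. The share of all tested genes that passed moved too, from 45.8% in the main fit. It was 48% with median centring, 57.1% with the stricter filter, 33.2% without a filter and 41.6% with averaged threat animals. Leaving out arrays gave 2610 to 3003 rises and 2524 to 2805 falls over all tested genes, beside 3119 and 2876. With the replicate block, by numbers not taken to pair the arrays, 48 rises and 1 fall passed, and Ndufa2 and Atp5g3 were lost. Without a filter the complex IV median was 0.14, as dim tissue isoforms entered. The fall of Cox7c left the count at 0 falls, in complex IV and in all, with the filter at the 60th percentile and with probe sets free of a cross-hybridisation suffix preferred, since it was then not tested. That choice of probe sets also gave medians of 0.24 and 0.035 in complexes II and III and turned Uqcrq to -0.094 and Atp5c1 to -0.26, neither of which passed, on dim probe sets. With probe sets averaged Atp5c1 was at -0.018 and Ndufb8 and Atp5g2 no longer passed. With Ndufa4 counted in complex I, 28 genes rose there and 8 in complex IV. The treat test against 1.2-fold, chosen after seeing the data, left 4 rises and 0 falls.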
